A study of Arabidopsis thaliana with 36 samples.

Results

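Cysteine-rich receptor-like kinases (CRKs) were followed at the transcript level in roots of Arabidopsis thaliana. Of 40 listed CRK loci, 32 had at least 10 counts summed over the 36 libraries of the count table, which holds 24532 loci. CRK12, CRK21, CRK23, CRK37 and CRK38 had between 0 and 5 counts in all libraries together, and CRK14, CRK15 and CRK33 were not analysed here. Of the 32 members, 23 passed the filter on low counts and were tested. The other 9, CRK6, CRK7, CRK13, CRK16, CRK22, CRK24, CRK39, CRK41 and CRK42, are described by their counts, mainly in IMA1ox +Fe and WT +Fe. Their counts for flg22 and for Fe deficiency in WT and fls2 are not compared here.

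The study crossed 3 genotypes with 4 treatments, 12 groups of 3 libraries, and each library pooled the RNA of about 15 roots. WT was Col-0. The mutant fls2, whose allele the labels do not give, lacks the receptor that perceives bacterial flagellin, and UBQ10::mCitrine-IMA1, here IMA1ox, drives IMA1, which encodes a short peptide of the Fe deficiency response, as an mCitrine fusion from the broadly active UBQ10 promoter, with the number of transformants not given in the sources used here. Seedlings aged 7 days and raised with Fe spent 24 h in liquid medium of 1 of 4 kinds. These were 75 µM Fe (+Fe), 75 µM Fe with 100 nM flg22 (+Fe flg22), 50 µM of the Fe chelator FerroZine (-Fe), and 50 µM FerroZine with 100 nM flg22 (-Fe flg22). flg22 is the flagellin peptide that FLS2 binds.

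A CRK carries an extracellular region with paired cysteine-rich DUF26 domains, a membrane span and a cytosolic kinase. The family is large, many members lie side by side on chromosome 4, and many are known as genes that respond to pathogens, salicylic acid and reactive oxygen species. Several members take part in immune signalling at the plasma membrane: CRK2 phosphorylates the NADPH oxidase RBOHD, CRK28 associates with FLS2 and its co-receptor BAK1, CRK4, CRK6 and CRK36 have been linked to FLS2 responses, and forced expression of CRK4, CRK5, CRK19 or CRK20 caused cell death in leaves.

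The promoters of 5 members that rose after flg22 in WT, and of CRK2, which also rose and holds no match, show how unevenly a known element of defence genes was spread. Each line is the 250 bases before the annotated gene start in RefSeq's TAIR10.1 annotation, 5′ to 3′ on the gene's strand, with TTGAC or GTCAA, the core of the W-box bound by WRKY transcription factors on either strand, in capitals. The minus-strand promoters are CRK5 (chr4:12120221-12120470), CRK11 (chr4:12143859-12144108), CRK18 (chr4:12170081-12170330) and CRK2 (chr1:26587629-26587878). The plus-strand promoters are CRK31 (chr4:6967459-6967708) and CRK20 (chr4:12174483-12174732).
CRK11: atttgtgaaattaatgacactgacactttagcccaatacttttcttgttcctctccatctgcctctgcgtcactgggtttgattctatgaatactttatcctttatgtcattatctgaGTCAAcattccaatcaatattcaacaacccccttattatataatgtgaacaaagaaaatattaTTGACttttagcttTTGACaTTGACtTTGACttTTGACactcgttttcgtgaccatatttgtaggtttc
CRK5: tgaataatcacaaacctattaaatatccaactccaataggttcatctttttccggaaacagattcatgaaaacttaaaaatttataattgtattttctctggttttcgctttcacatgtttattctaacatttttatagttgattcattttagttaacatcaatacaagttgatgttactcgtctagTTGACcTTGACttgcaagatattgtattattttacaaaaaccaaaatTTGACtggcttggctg
CRK18: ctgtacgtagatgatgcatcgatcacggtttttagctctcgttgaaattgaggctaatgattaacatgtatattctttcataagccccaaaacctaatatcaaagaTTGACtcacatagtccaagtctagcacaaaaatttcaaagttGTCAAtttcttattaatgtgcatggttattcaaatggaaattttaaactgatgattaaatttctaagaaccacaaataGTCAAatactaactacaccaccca
CRK31: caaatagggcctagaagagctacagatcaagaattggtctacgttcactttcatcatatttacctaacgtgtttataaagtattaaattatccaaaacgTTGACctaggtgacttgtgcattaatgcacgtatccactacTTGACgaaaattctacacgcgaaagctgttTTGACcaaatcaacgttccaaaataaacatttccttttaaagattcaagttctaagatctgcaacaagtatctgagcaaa
CRK20: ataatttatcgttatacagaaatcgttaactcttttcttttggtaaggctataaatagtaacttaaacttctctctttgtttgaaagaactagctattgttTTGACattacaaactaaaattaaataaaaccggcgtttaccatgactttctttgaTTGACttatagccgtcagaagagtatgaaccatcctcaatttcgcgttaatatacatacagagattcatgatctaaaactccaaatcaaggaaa
CRK2: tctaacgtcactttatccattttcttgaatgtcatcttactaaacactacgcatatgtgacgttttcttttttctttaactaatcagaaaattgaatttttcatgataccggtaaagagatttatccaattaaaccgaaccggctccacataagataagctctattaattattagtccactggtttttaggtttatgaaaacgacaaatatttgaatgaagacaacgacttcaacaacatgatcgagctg
CRK11 held 6 matches, CRK5, CRK18 and CRK31 held 3 each, CRK20 held 2 and CRK2 held 0. At least 1 match was found in 24 of the 32 members' promoters, against 44.9% of 27438 promoters of protein-coding genes, and at least 3 matches in 7 of the 32, against 3.38%. Of the 12 members called higher after flg22 in WT both with and without Fe, 8 held a match and 5 held at least 3. Of the other 20 members, 16 held a match and 2 held at least 3. CRK8, CRK16, CRK17 and CRK27 have no annotated 5′ leader, so their windows end at the coding start. The windows of CRK16, CRK24, CRK25, CRK26, CRK28, CRK29, CRK34 and CRK40 overlap other annotated genes. These windows are not equivalent to the rest. Members of a family share ancestry, and a match of 5 letters is a description of the sequence and no measured binding site.

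Library totals ran from 28130566 to 40903411 counts, and 20354 genes were tested. Values are normalised counts (CPM, counts scaled to library size with TMM factors), given as mean ± SD with n = 3 libraries, and log2 fold changes are given ± SE. A gene is called when its adjusted p is under 0.05 by edgeR's quasi-likelihood test with Benjamini-Hochberg adjustment over all genes tested. The labels call each pool a biological replicate, so p-values measure the spread between pools. In pooled roots, fewer cells that express a gene and less RNA per cell cannot be told apart. FLS2 itself was counted 0 times in each untreated fls2 library and at most 3 times in a flg22-treated one, against 1.20 ± 0.403 CPM in WT +Fe. IMA1 reached 341 ± 8.29 CPM in IMA1ox +Fe and 2.45 ± 0.657 CPM in WT +Fe. All 7 root markers were detected in every library. The library IMA1ox -Fe flg22 1 had the lowest mean correlation with its group, 0.984, against 0.986 to 0.994 in the others, and is named below where it touches a result.

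The members spanned a wide range of abundance. Per kb of exon, CRK19 was highest in WT +Fe at 26.6 CPM per kb, followed by CRK29 at 22.1, CRK25 at 18.5, CRK3 at 12.9 and CRK2 at 10.7 CPM per kb. CRK27, CRK28, CRK34, CRK11 and CRK26 followed at 9.28, 8.62, 7.17, 4.08 and 3.57 CPM per kb. Beneath these 10 came a step to CRK18 at 0.587 and CRK10 at 0.483 CPM per kb, and the remaining 20 members lay lower still. Averaged over all libraries, 10 members stood at 5 CPM or more, 9 from 0.5 to 5 CPM and 13 under 0.5 CPM. The filter keeps a gene with enough counts in any 3 libraries, so a low member could pass through the groups in which it was high. Counts over the 23 tested members are therefore descriptions.

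**Figure D1:**
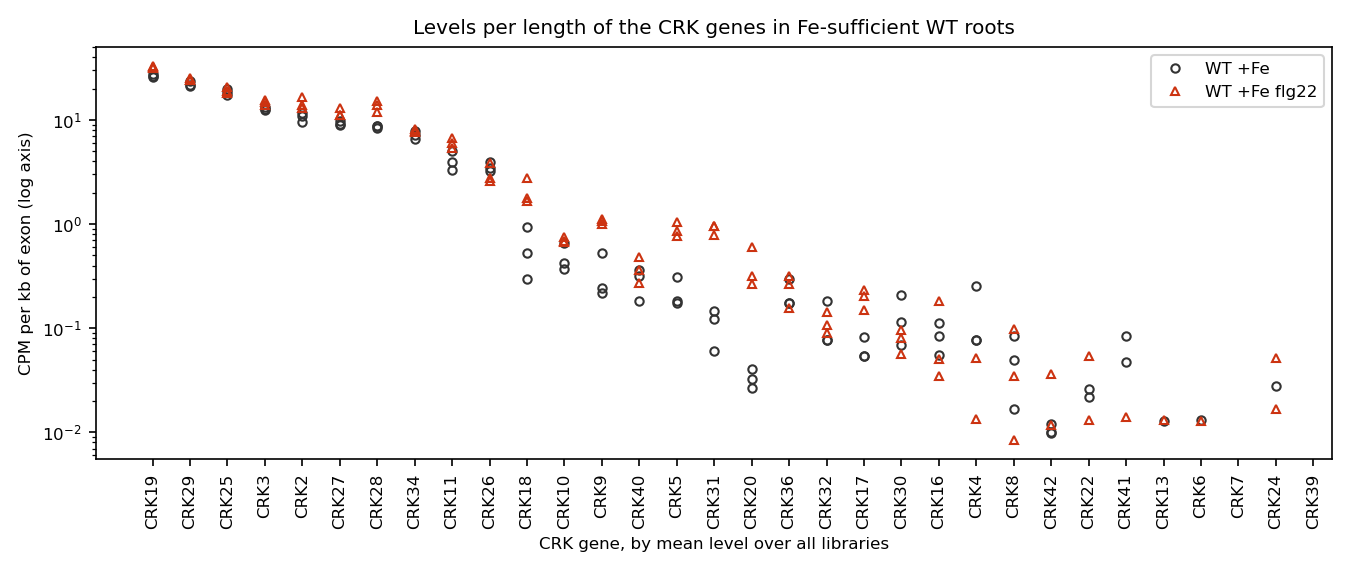
Level per kb of exon (log axis) of each of the 32 CRK members in the 3 WT +Fe libraries (circles) and the 3 WT +Fe flg22 libraries (triangles), ordered by the mean over all libraries. Libraries with 0 counts are not drawn. CRK19 stands highest at a mean of 26.6 CPM per kb in WT +Fe, and the triangles clear the circles most widely in the lower members CRK31 and CRK20.

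Treatment of Fe-sufficient WT with flg22 asked how the family responded to the flagellin peptide, and most tested members rose. Of 23 members, 13 were called higher and 1 lower, which is 60.9% of them, where 40.1% of all genes tested were called, 20.8% higher and 19.4% lower. The median log2 fold change was 0.35 over the members and 0.01 over all genes. The summed level of the 32 members went from 322 to 332 CPM in the WT +Fe libraries to 386 to 420.4 CPM after flg22. Over the 10 members at 5 CPM or more, called or not, log2 fold changes ran from -0.22 (CRK26) to 0.66 (CRK28), with SEs from 0.06 to 0.19. Over the 13 tested members below 5 CPM they ran from -2.49 (CRK4) to 3.50 (CRK20), with SEs from 0.23 to 0.83, so a small change could be called in the first set and not in the second.

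CRK20 (AT4G23280), a neighbour of the long CRK array on chromosome 4, stood at 0.0856, 0.0681 and 0.0567 CPM in the WT +Fe libraries and at 1.27, 0.567 and 0.667 CPM after flg22. All treated libraries lay above all untreated ones, and the log2 fold change was 3.50 ± 0.58 (adjusted p = 2.63e-05). It rests on 7 counts over the untreated group and 73 over the treated one, a ratio of 11.9 with a 95% counting interval from 5.48 to 30.5. CRK31 (AT4G11470) had 0.285, 0.340 and 0.142 CPM before and 2.22, 1.84 and 2.21 CPM after flg22. These groups were far apart: the log2 fold change reached 3.03 ± 0.38 (adjusted p = 4.78e-07).

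CRK5 (AT4G23130), which is also linked to abscisic acid responses, went from 0.428, 0.408 and 0.737 CPM to 2.46, 2.04 and 1.79 CPM. CRK18 (AT4G23260) went from 0.656, 2.08 and 1.16 CPM to 6.09, 3.70 and 3.90 CPM. CRK9 (AT4G23170) went from 0.399, 0.442 and 0.963 CPM to 1.81, 1.94 and 2.04 CPM. In none of these did the groups overlap, and the untreated libraries of CRK18 spread the widest of the 3 genes. The log2 fold changes were 1.98 ± 0.42 for CRK5 (adjusted p = 0.000455), 1.84 ± 0.37 for CRK18 (adjusted p = 0.000298) and 1.66 ± 0.29 for CRK9 (adjusted p = 6.02e-05).

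CRK17 (AT4G23250) was lower, with 0.257, 0.170 and 0.170 CPM before and 0.719, 0.467 and 0.632 CPM after flg22. The groups did not overlap, and the log2 fold change was 1.58 ± 0.52 (adjusted p = 0.0171). CRK28 (AT4G21400), the associate of FLS2 and BAK1, is abundant and went from 26.6, 25.6 and 26.6 CPM to 42.3, 46.1 and 36.04 CPM. Its untreated libraries were tight and every treated one was higher, by 0.66 ± 0.09 (adjusted p = 1.16e-06). The gene models of CRK28 and CRK29 overlap, as do those of CRK16 and CRK17, and the counting of shared reads is not stated.

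The other called rises were smaller. CRK11 (RLK3, a gene known to respond to oxidative stress) rose by 0.56 ± 0.19, CRK2 by 0.44 ± 0.11, CRK27 by 0.35 ± 0.08, CRK19 by 0.28 ± 0.07, CRK3 by 0.19 ± 0.06 and CRK29 by 0.15 ± 0.06. CRK4 (AT3G45860) was the 1 member called lower, from 0.200, 0.647 and 0.198 CPM to 0.0342, 0.133 and 0 CPM. The groups did not overlap, and the log2 fold change was -2.49 ± 0.83 (adjusted p = 0.0176) on 33 counts before and 5 after, a ratio of 5.80 with a 95% counting interval from 2.25 to 19.04. CRK10, CRK36, CRK40, CRK34, CRK25, CRK32, CRK8, CRK26 and CRK30 were not called, with log2 fold changes from -0.75 to 0.56.

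With 1 library left out, CRK29 lost the call without WT +Fe 2 or 3 or any WT +Fe flg22 library (adjusted p from 0.0632 to 0.216), and also with RLE factors, library totals, a filter at a mean of 1 CPM, DESeq2, a replicate block or the 6 libraries alone. CRK11 lost it without WT +Fe 1 or 3 or WT +Fe flg22 1 or 2 (adjusted p between 0.0514 and 0.123), CRK17 without WT +Fe 2 or 3 or WT +Fe flg22 1 (adjusted p from 0.0540 to 0.0659), CRK3 without WT +Fe 3 or WT +Fe flg22 2 (adjusted p from 0.0607 to 0.114), and CRK4 without WT +Fe 2 (log2 fold change -1.75) or WT +Fe flg22 1 or 3 (adjusted p between 0.0684 and 0.149), with -4.03 without WT +Fe flg22 2. Summed green shoot markers (8 genes, 5 called higher) ran from 246 to 328 CPM in WT +Fe and from 345 to 489 CPM after flg22, and summed markers of dividing cells (5 genes, all called lower) from 150 to 172 CPM and from 107 to 122 CPM. Their part in the result was not tested.

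**Figure D2:**
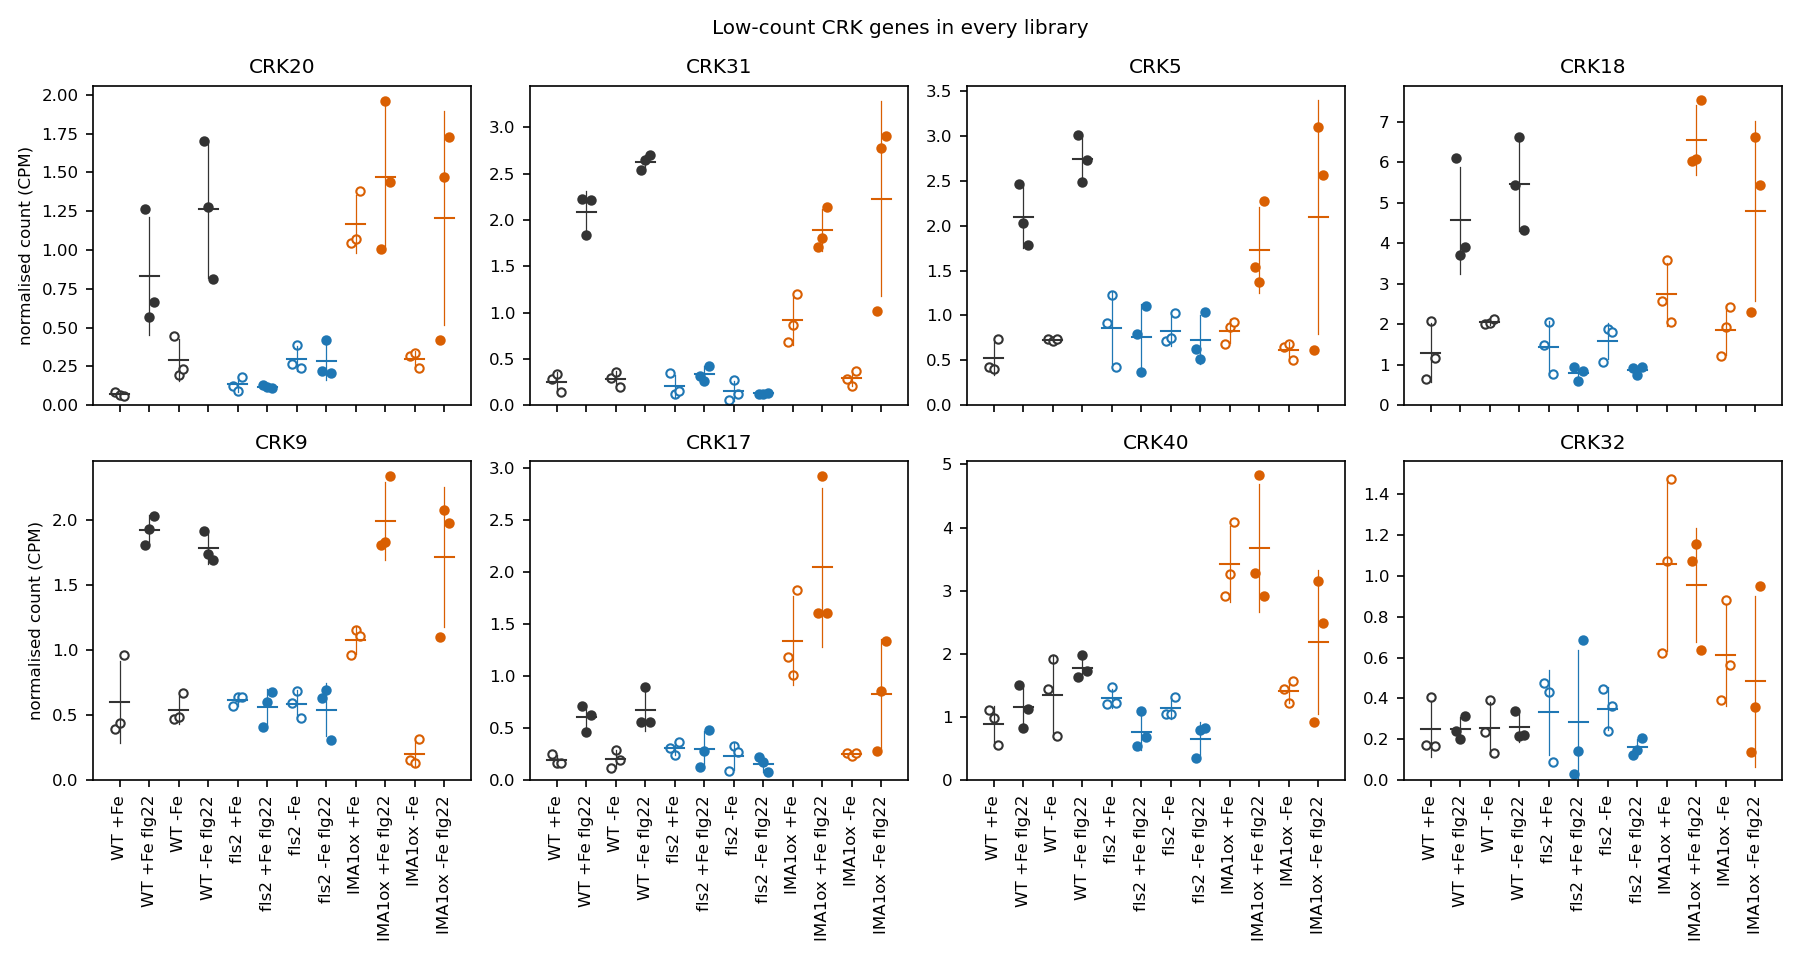
Normalised count (CPM) of 8 CRK genes of low abundance in each of the 36 libraries by group: points are libraries (open without flg22, filled with flg22), horizontal bars are means and vertical lines are ± 1 SD (n = 3). In WT +Fe the filled points of CRK20, CRK31, CRK5, CRK18, CRK9 and CRK17 stand above the open ones, and those of CRK40 and CRK32 overlap them. In IMA1ox +Fe the open points of CRK20, CRK17, CRK40 and CRK32 already stand above those of WT +Fe.

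Under Fe deficiency, flg22 gave WT a similar list. Of 23 members, 14 were called higher and 1 lower, where 35% of all genes tested were called, 18.2% higher and 16.8% lower, and the median was 0.39 over the members and 0.00 over all genes. In CRK31 the log2 fold change was 3.18 ± 0.37, from 0.285 ± 0.0799 to 2.63 ± 0.0791 CPM, and in CRK20 it was 2.09 ± 0.43, from 0.291 ± 0.133 to 1.26 ± 0.445 CPM. CRK5, CRK17, CRK9 and CRK18 rose by 1.90 ± 0.39, 1.72 ± 0.52, 1.71 ± 0.30 and 1.41 ± 0.34. CRK11 rose by 1.01 ± 0.19, CRK10 by 0.82 ± 0.23 and CRK25 by 0.35 ± 0.12, and CRK2, CRK28, CRK27, CRK19 and CRK3 by 0.50 to 0.20. CRK26 fell by 0.36 ± 0.12 (adjusted p = 0.0144), and CRK4 had -1.95 ± 0.90 (adjusted p = 0.0924). Summed green shoot markers (5 of 8 called higher) ran from 202 to 309 CPM in WT -Fe and from 348 to 570 CPM after flg22, and dividing cell markers (4 of 5 called lower) from 147 to 181 CPM and from 125 to 133 CPM, and their part in the result was not tested.

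Both WT lists shared 12 members called higher, which is 12 of 13 with Fe and 12 of 14 without. Over all genes 4227 were called higher with Fe and 3707 without. How many of those were shared was not counted, so the overlap is not shown to be particular to the family. The test of the difference between the 2 flg22 effects in WT called 0 members by edgeR, DESeq2 and limma-trend, with 1 member at an unadjusted p under 0.05, where 0.246% of all genes were called. The interval of that difference was wide for low members, from -1.20 to 1.04 for CRK5 and from -2.94 to 0.12 for CRK20. With 1 library left out, CRK25 lost its call under Fe deficiency without WT -Fe 1 or 2 or WT -Fe flg22 1 or 3 (adjusted p between 0.0590 and 0.107), CRK17 without WT -Fe 1 or WT -Fe flg22 2 (adjusted p from 0.0584 to 0.0636), CRK3 without WT -Fe 2 or WT -Fe flg22 3 (adjusted p from 0.0537 to 0.0847), CRK10 without WT -Fe flg22 1 (adjusted p = 0.0565) and CRK26 without WT -Fe 1 (adjusted p = 0.0598). CRK4 gained a call without WT -Fe flg22 1 (-3.48, adjusted p = 0.0386).

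**Figure D3:**
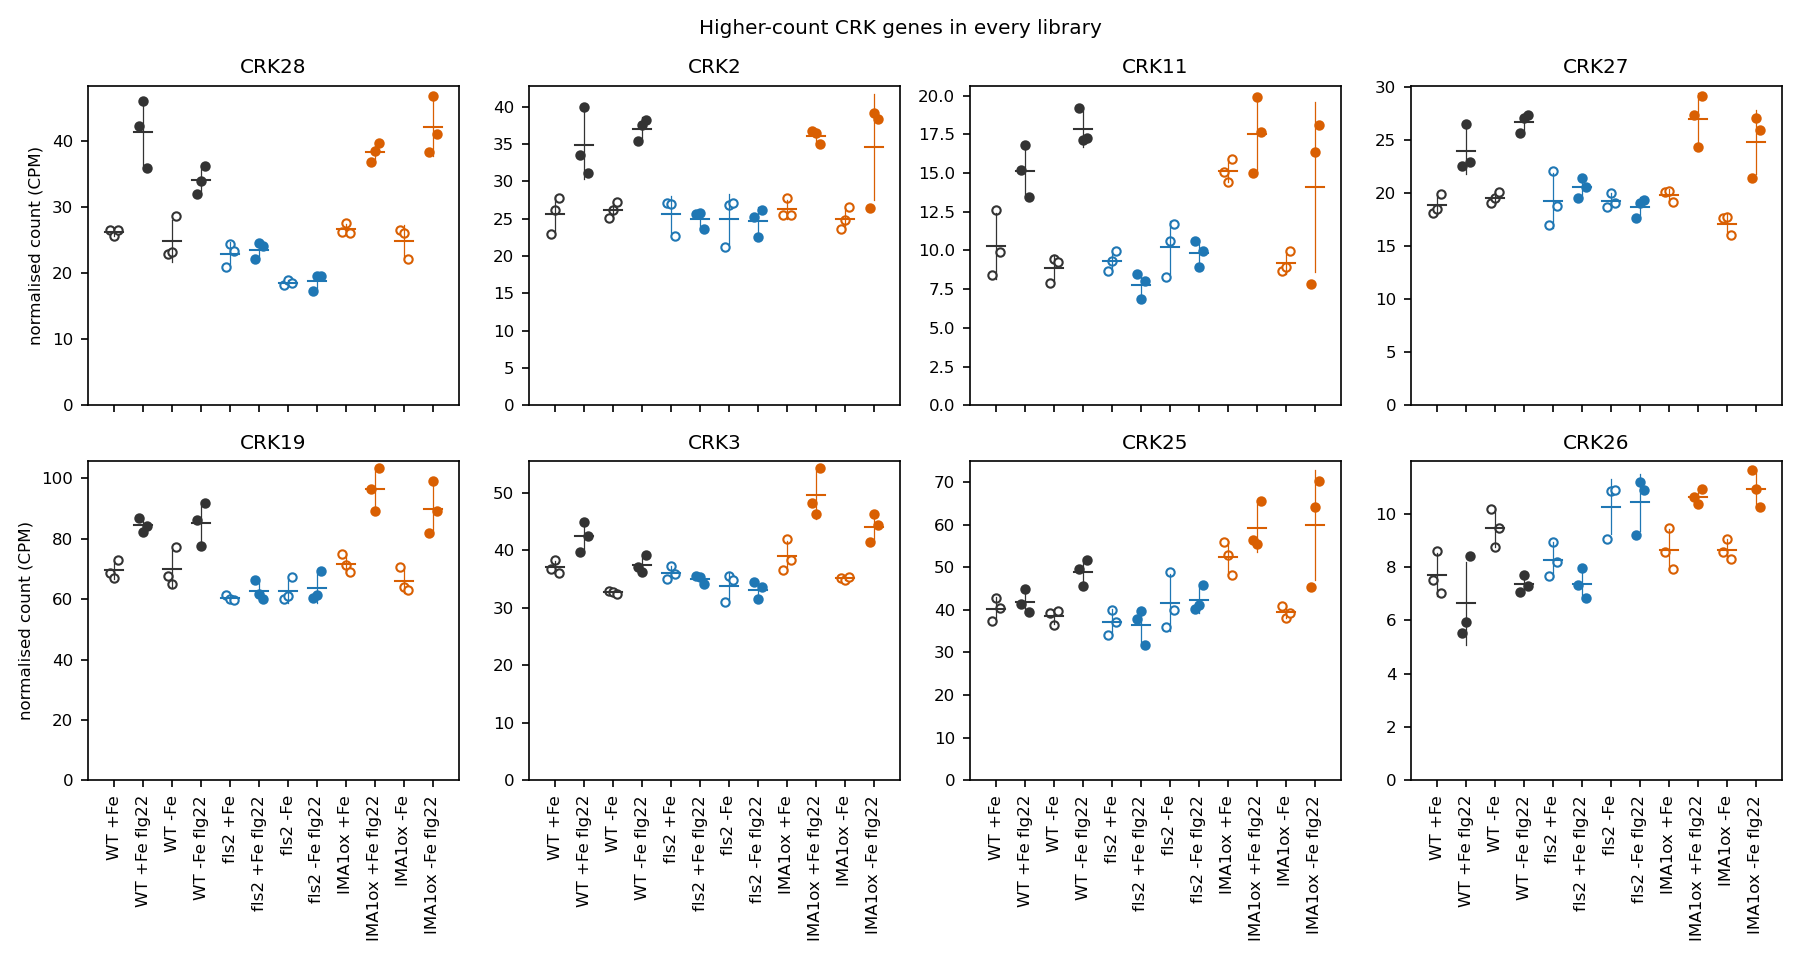
Normalised count (CPM, axis from 0) of 8 CRK genes of higher abundance in each of the 36 libraries by group, drawn as points (open without flg22, filled with flg22) with means and ± 1 SD (n = 3). CRK28 goes from 26.3 ± 0.561 CPM in WT +Fe to 41.5 ± 5.09 CPM after flg22, and its fls2 libraries stay between 17.4 and 24.5 CPM.

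The fls2 mutant asked whether these changes needed the flagellin receptor. In fls2, flg22 called 0 members with Fe and 0 without by edgeR, DESeq2 and limma-trend, with 1 member at an unadjusted p under 0.05 in each case, and 0% of all genes were called in either. CRK20 stood at 0.127, 0.0920 and 0.184 CPM in fls2 +Fe and at 0.127, 0.115 and 0.114 CPM after flg22. CRK31 had 0.348, 0.123 and 0.154 CPM and then 0.318, 0.259 and 0.427 CPM. CRK18 had 1.49, 2.06 and 0.768 CPM and then 0.953, 0.604 and 0.855 CPM. In all 3 genes the treated and untreated fls2 libraries overlapped. Other members had fls2 groups that lay apart, lower after flg22. CRK4, called lower in WT +Fe, had 0.348, 0.460 and 0.430 CPM and then 0.159, 0.230 and 0.228 CPM. CRK40 had 1.20, 1.47 and 1.23 CPM and then 0.540, 1.09 and 0.684 CPM. CRK11 had 8.67, 9.29 and 9.95 CPM and then 8.48, 6.87 and 8.01 CPM. None of these was called, and the share of all genes with groups apart was not counted.

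The difference between genotypes was itself called. With Fe, the flg22 effect in fls2 minus that in WT was called in 9 of 23 members, all negative, where 20.2% of all genes were called. It was -3.68 ± 0.96 for CRK20, -2.68 ± 0.57 for CRK18, -2.35 ± 0.65 for CRK31, -2.15 ± 0.60 for CRK5 and -1.78 ± 0.44 for CRK9, with CRK11, CRK28, CRK2 and CRK3 from -0.82 to -0.24. Under Fe deficiency 10 members were called, all negative, where 21.2% of all genes were called: CRK31 at -3.42 ± 0.74, CRK18 at -2.29 ± 0.54, CRK17 at -2.28 ± 0.81, CRK20 at -2.15 ± 0.67, CRK5 at -2.08 ± 0.58 and CRK9 at -1.83 ± 0.45, with CRK11, CRK2, CRK27 and CRK28 from -1.06 to -0.43. These differences share the WT libraries of the comparisons above.

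In the Fe-deficient groups CRK31 stood at 0.0597, 0.270 and 0.120 CPM in fls2 -Fe and at 0.126, 0.124 and 0.130 CPM after flg22. The WT -Fe libraries had 0.295, 0.360 and 0.201 CPM and then 2.54, 2.64 and 2.698 CPM. The WT groups were apart and the fls2 groups overlapped. CRK5 had 0.716, 0.750 and 1.02 CPM in fls2 -Fe and 0.631, 0.519 and 1.04 CPM after flg22, which overlap, and CRK17 had 0.0895, 0.330 and 0.271 CPM and then 0.221, 0.173 and 0.0781 CPM, which overlap as well. CRK18 had 1.07, 1.89 and 1.81 CPM and then 0.915, 0.742 and 0.937 CPM, which do not overlap. The difference of CRK18 from WT therefore holds a fall in fls2, not called, beside the rise in WT. CRK40 had 1.04, 1.05 and 1.33 CPM and then 0.347, 0.791 and 0.833 CPM, also apart and not called.

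Compared directly after flg22, 12 members were lower in fls2 than in WT with Fe, where 48% of all genes were called, 23.6% higher and 24.5% lower. Under Fe deficiency 14 were lower and CRK26 higher, where 48.3% were called, 23.2% higher and 25.1% lower. In these comparisons green shoot markers were called lower in fls2 in 5 of 8 with Fe and 8 of 8 without, and dividing cell markers higher in 5 of 5 in both. In the differences between the flg22 effects of fls2 and WT, green shoot markers were called lower in 1 of 8 with Fe and 4 of 8 without, and dividing cell markers higher in 4 of 5 and 2 of 5. Their part in the result was not tested. Without flg22, 0 members differed with Fe by edgeR, DESeq2 and limma-trend (2 at an unadjusted p under 0.05), where 0.0197% of all genes were called, and CRK28 was lower without Fe (-0.42 ± 0.09, adjusted p = 0.0477), where 0.103% were called. CRK28 lost that call without WT -Fe 2 or 3 or any fls2 -Fe library (adjusted p from 0.0505 to 0.608), with no filter, with a filter at a mean of 1 CPM, with limma-trend and in the 6 libraries alone. After flg22 with Fe, CRK10 lost the call without WT +Fe flg22 1 or fls2 +Fe flg22 2 (adjusted p from 0.0737 to 0.127) and CRK27 without WT +Fe flg22 2 or fls2 +Fe flg22 1 or 3 (adjusted p from 0.0650 to 0.238), and without Fe CRK3 lost it without WT -Fe flg22 3 or fls2 -Fe flg22 2 (adjusted p from 0.104 to 0.116) and CRK10 without WT -Fe flg22 1 (adjusted p = 0.0523).

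For the differences between fls2 and WT, 1 library often decided a call near the threshold. With Fe, the count of 9 fell to 5 without fls2 +Fe 2, CRK31 lost the call without fls2 +Fe 1 (adjusted p = 0.111), CRK5 without fls2 +Fe 2 (adjusted p = 0.0563), CRK2 without WT +Fe 1 or 2, WT +Fe flg22 2, fls2 +Fe 1 or 2 or fls2 +Fe flg22 3 (adjusted p up to 0.140), CRK11 without WT +Fe 1 or 3, WT +Fe flg22 1 or 2, fls2 +Fe 2 or 3 or fls2 +Fe flg22 2 or 3 (adjusted p from 0.0553 to 0.103), and CRK3 without any library but WT +Fe flg22 1 (adjusted p from 0.0563 to 0.177) and with each alternative except the replicate block and limma-trend. Under Fe deficiency CRK20 lost it without WT -Fe 2, WT -Fe flg22 1 or fls2 -Fe 2 (adjusted p from 0.0565 to 0.0774), CRK28 without WT -Fe 1 or 2, WT -Fe flg22 3 or fls2 -Fe flg22 1 (adjusted p from 0.0564 to 0.0613), CRK2 without WT -Fe 1, fls2 -Fe 2 or 3 or fls2 -Fe flg22 2 (adjusted p from 0.0524 to 0.0668), and CRK17 with limma-trend and without WT -Fe 1 or 3, WT -Fe flg22 2 or 3, fls2 -Fe 2 or 3 or fls2 -Fe flg22 2 or 3 (adjusted p from 0.0502 to 0.147), and CRK31 had -2.69 without fls2 -Fe 2.

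Fe deficiency alone asked whether the family responded to Fe supply. In WT 0 members were called by edgeR, DESeq2 and limma-trend, with 5 at an unadjusted p under 0.05, where 5.97% of all genes were called, 3.12% higher and 2.85% lower. CRK20 came nearest in size, from 0.0856, 0.0681 and 0.0567 CPM to 0.443, 0.196 and 0.234 CPM. These libraries did not overlap, and the log2 fold change of 2.01 ± 0.68 missed the threshold (adjusted p = 0.0728; 95% interval 0.69 to 3.34). CRK3 had -0.18 ± 0.06 (adjusted p = 0.0722). In fls2 0 members were called by the 3 tools (3 at an unadjusted p under 0.05), where 2.12% of all genes were called. In flg22-treated WT 0 were called by the 3 tools (2 at an unadjusted p under 0.05), where 0.138% of all genes were called. In flg22-treated fls2, where 5.3% of all genes were called, 2.08% higher and 3.22% lower, CRK26 was higher (0.50 ± 0.11) and CRK28 lower (-0.32 ± 0.09) under Fe deficiency. CRK26 lost that call without fls2 +Fe flg22 3 (adjusted p = 0.0543) and CRK28 in 5 fits with 1 library left out (adjusted p from 0.0509 to 0.156), fls2 +Fe flg22 1 being the exception.

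The IMA1ox line differed from WT before any flg22 was given. With Fe, 9 of 23 members were called higher in IMA1ox and 0 lower, where 16.7% of all genes were called, 7.09% higher and 9.63% lower. The median was 0.33 over the members and 0.01 over all genes. The summed level of the members was 348 to 361 CPM in IMA1ox +Fe and 322 to 332 CPM in WT +Fe.

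CRK20 stood at 1.05, 1.07 and 1.38 CPM in IMA1ox +Fe against 0.0856, 0.0681 and 0.0567 CPM in WT +Fe. Every IMA1ox library was above every WT library, and the log2 fold change was 3.98 ± 0.55 (adjusted p = 6.8e-06) on 120 and 7 counts, a ratio of 16.6 with a 95% counting interval from 7.80 to 42.1. CRK17 had 1.19, 1.01 and 1.83 CPM against 0.257, 0.170 and 0.170 CPM. The groups were apart by 2.72 ± 0.47 (adjusted p = 0.000131). CRK31 had 0.679, 0.868 and 1.203 CPM against 0.285, 0.340 and 0.142 CPM, again without overlap, and 1.84 ± 0.40 (adjusted p = 0.00174).

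CRK32 and CRK40 were called here and not for flg22 in WT. CRK32 (AT4G11480) had 0.623, 1.07 and 1.47 CPM in IMA1ox +Fe and 0.171, 0.408 and 0.170 CPM in WT +Fe. CRK40 (AT4G04570) had 2.92, 3.27 and 4.09 CPM against 1.11, 0.987 and 0.567 CPM. Neither gene's groups overlapped, and the log2 fold changes were 2.097 ± 0.60 (adjusted p = 0.0142) and 1.95 ± 0.35 (adjusted p = 0.000203). After flg22, in WT +Fe, CRK40 had 0.38 ± 0.39 (adjusted p = 0.460) and CRK32 had 0.05 ± 0.74 (adjusted p = 0.967). The flg22 effect with Fe in IMA1ox minus that in WT was not called for either gene, at -0.27 ± 0.49 for CRK40 (adjusted p = 0.849; 95% interval -1.24 to 0.69) and -0.18 ± 0.90 for CRK32 (adjusted p = 0.952; 95% interval -1.94 to 1.57).

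CRK18 rose by 1.10 ± 0.38, CRK10 by 0.98 ± 0.22, CRK11 by 0.56 ± 0.19 and CRK25 by 0.38 ± 0.12. CRK10, whose activated form stunts growth, overlaps CRK11 on the opposite strand. CRK25, CRK19 and CRK42 also overlap a gene on the opposite strand, AT4G05190, AT4G23271 and AT5G40382 in that order. The strand used in counting is not stated. CRK9 had 0.82 ± 0.30 (adjusted p = 0.0603), and it was called by library totals, with limma-trend, with a replicate block and without WT +Fe 3 (1.34, adjusted p = 0.00778). The abundant CRK2, CRK3, CRK19, CRK26, CRK27, CRK28, CRK29 and CRK34 were not called, with log2 fold changes from -0.12 to 0.17.

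Members too low to test were compared by their counts in IMA1ox +Fe and WT +Fe, and they did not move together. CRK16 had 10 and 17, CRK24 had 1 and 2, and CRK13 had 1 and 1. CRK6 had 4 and 1, CRK41 had 14 and 10, and CRK42 had 5 and 3. CRK7, CRK39 and CRK22 are given in more detail because their excess in counts was larger. CRK7, which is known for a part in responses to extracellular reactive oxygen, had 5, 3 and 4 counts in IMA1ox +Fe and 0 in each WT library and in each IMA1ox -Fe library. Those 12 counts are part of 21 over all libraries. CRK39 had 7 counts in IMA1ox +Fe and 0 in WT +Fe, of 15 in all. Both genes reached the sum of 10 counts required of a member through IMA1ox libraries, so their excess there was set by the selection and no fold is given. CRK22 had 16 of its 54 counts in IMA1ox +Fe and 4 in WT +Fe, a ratio of 3.87 with a 95% counting interval from 1.25 to 15.9. By library these were 2, 6 and 8 counts against 0, 2 and 2, so the groups met. CRK22 was picked out by these same counts, so its interval is no test of the excess. In CRK22 16.2% of 50-base stretches of exon recur elsewhere in the genome, and in CRK39 5.38%. The share is 21.951% in CRK6, 16.481% in CRK8 and 15.362% in CRK13. Of the other members named above, it is 6.72% in CRK20, 4.70% in CRK18, 4.43% in CRK40, 3.78% in CRK17 and 3.16% in CRK9. Reads from such stretches are uncertain in all these members, and most so where the share is high.

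With 1 library left out, CRK32 lost the call in IMA1ox against WT with Fe without WT +Fe 1 or 3 or IMA1ox +Fe 3 (adjusted p from 0.0640 to 0.0802), CRK18 and CRK25 each without WT +Fe 1 or 3 or IMA1ox +Fe 1 or 2 (adjusted p from 0.0629 to 0.204), CRK18 also with no filter and in the 6 libraries alone, and CRK11 in all such fits except that without WT +Fe 2 (adjusted p from 0.0629 to 0.179). The count was 5 without WT +Fe 1. Summed green shoot markers ran from 160 to 212 CPM in IMA1ox +Fe and from 246 to 328 CPM in WT +Fe, with 5 of 8 called lower, and dividing cell markers from 167 to 172 CPM and from 150 to 172 CPM, with 0 of 5 called. Summed root markers ran from 14625 to 17649 CPM and from 19716 to 21446 CPM, with 2 of 7 called lower and 0 higher. Their part in the result was not tested.

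**Figure D4:**
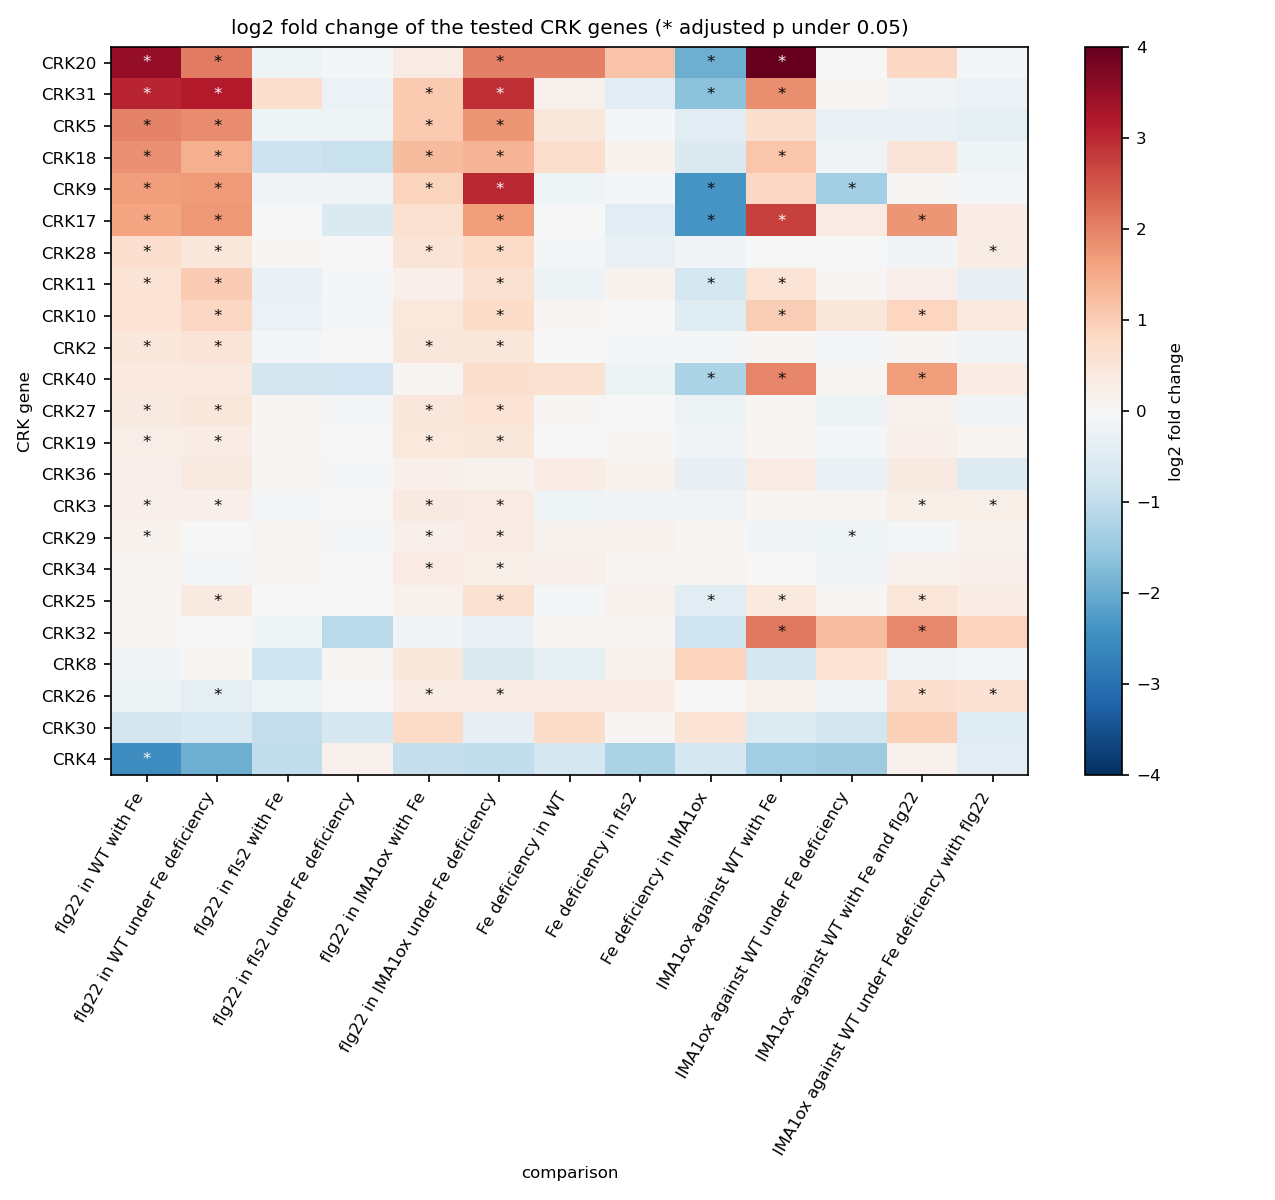
log2 fold changes of the 23 tested CRK genes (rows, ordered by flg22 in WT with Fe) in 13 comparisons (columns), red higher and blue lower, with an asterisk where the adjusted p is under 0.05. The flg22 columns of WT hold asterisks on 13 red cells and 1 blue one with Fe (CRK4) and on 14 and 1 without (CRK26), those of IMA1ox on 12 and 17, all red, and those of fls2 on 0, and Fe deficiency in IMA1ox holds 7, all on blue cells. The columns share libraries, so their likeness is not a result.

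Under Fe deficiency the levels in IMA1ox came down. Of 23 members, 7 were called lower and 0 higher in Fe-deficient against Fe-sufficient IMA1ox, where 4.29% of all genes were called and 2.39% lower. The median was -0.41 over the members and 0.00 over all genes. CRK17 fell from 1.19, 1.01 and 1.83 CPM to 0.262, 0.237 and 0.267 CPM. CRK9 fell from 0.962, 1.16 and 1.11 CPM to 0.157, 0.135 and 0.321 CPM. CRK20 fell from 1.05, 1.07 and 1.38 CPM to 0.314, 0.339 and 0.241 CPM.

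None of these 3 genes had overlapping groups. The log2 fold changes were -2.37 ± 0.45 for CRK17 (adjusted p = 0.00129), -2.35 ± 0.36 for CRK9 (adjusted p = 0.000109) and -1.97 ± 0.42 for CRK20 (adjusted p = 0.00421). CRK31 fell from 0.679, 0.868 and 1.203 CPM to 0.288, 0.203 and 0.374 CPM, by 1.63 ± 0.39. CRK40 fell from 2.92, 3.27 and 4.09 CPM to 1.44, 1.22 and 1.58 CPM, by 1.27 ± 0.33, again with no overlap in either gene. CRK11 fell by 0.72 ± 0.19 and CRK25 by 0.41 ± 0.12. This comparison shares the IMA1ox +Fe libraries with the one against WT, so a member that was high in them enters both.

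The Fe deficiency effect in IMA1ox minus that in WT, a comparison added after the data were seen, was called in 3 members, all negative, where 4.02% of all genes were called. It was -3.98 ± 0.79 for CRK20 (adjusted p = 0.00241), -2.19 ± 0.50 for CRK9 (adjusted p = 0.00809) and -1.89 ± 0.50 for CRK40 (adjusted p = 0.0247). The CRK20 difference combines log2 fold changes of 2.01 in WT, not called, and -1.97 in IMA1ox. The WT value rests on 7 counts with Fe and 28 without. By limma-trend on log2(CPM + 1) the CRK20 difference was -1.0034 (adjusted p = 0.0121). CRK17 had -2.39 ± 0.79 (adjusted p = 0.0906), and was called by DESeq2 (adjusted p = 0.0415), by limma-trend (adjusted p = 0.0199) and in the 12 libraries alone (adjusted p = 0.0478). CRK40 in WT had 1.11, 0.987 and 0.567 CPM with Fe and 1.45, 1.93 and 0.702 CPM without, which overlap.

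Between Fe-deficient groups, 2 members were lower in IMA1ox than in WT and 0 higher, where 11.9% of all genes were called, 4.15% higher and 7.76% lower. CRK9 had 0.157, 0.135 and 0.321 CPM in IMA1ox -Fe and 0.473, 0.490 and 0.669 CPM in WT -Fe. The groups did not overlap, with -1.36 ± 0.39 (adjusted p = 0.0218). CRK29 had 65.1, 71.5 and 63.8 CPM against 79.2, 76.1 and 70.8 CPM, which overlap, with -0.17 ± 0.06 (adjusted p = 0.0457). By library totals alone the split was 1 higher and 1 lower. Green shoot markers were called lower in 4 of 8, and dividing cell markers in 0 of 5, and their part in the result was not tested. CRK9 lost the call without WT -Fe 3 or IMA1ox -Fe 1 or 2 (adjusted p from 0.0907 to 0.0999), with limma-trend and in the 6 libraries alone, and CRK29 without WT -Fe 1 or 2 or IMA1ox -Fe 1 or 3 (adjusted p from 0.0789 to 0.171), with no filter, by library totals, with a replicate block and in the 6 libraries alone.

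For Fe deficiency in IMA1ox, CRK25 lost the call in all 6 fits with 1 library left out (adjusted p from 0.0505 to 0.160) and with no filter, CRK11 without IMA1ox +Fe 1 or 3 or IMA1ox -Fe 1 or 2 (adjusted p from 0.0584 to 0.0986), CRK40 without IMA1ox +Fe 3 or any IMA1ox -Fe library (adjusted p from 0.0524 to 0.102), and CRK31 without IMA1ox +Fe 3 or IMA1ox -Fe 2 (adjusted p from 0.0639 to 0.0837). The count of 7 fell to 3 without IMA1ox +Fe 3 or IMA1ox -Fe 2, and to 4 without IMA1ox -Fe 1. For the difference from WT, CRK40 lost the call without WT +Fe 3, WT -Fe 1 or 2, IMA1ox +Fe 3 or IMA1ox -Fe 2 (adjusted p from 0.0527 to 0.115), and the count was 2 then. Summed green shoot markers ran from 160 to 212 CPM in IMA1ox +Fe and from 157 to 184 CPM in IMA1ox -Fe, and their part in the result was not tested.

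The response of IMA1ox to flg22 followed. With Fe, 12 members were called higher and 0 lower, where 43.4% of all genes were called, 23% higher and 20.4% lower, with a median of 0.42 over the members and 0.01 over all genes. CRK18 rose by 1.26 ± 0.33, CRK5 by 1.06 ± 0.40, CRK31 by 1.04 ± 0.31 and CRK9 by 0.89 ± 0.27, and CRK28, CRK2, CRK27, CRK19, CRK3, CRK34, CRK26 and CRK29 by 0.52 to 0.20. CRK20 went from 1.05, 1.07 and 1.38 CPM to 1.01, 1.962 and 1.44 CPM, which overlap, with 0.34 ± 0.35 (adjusted p = 0.458). CRK17 had 0.61 ± 0.36 (adjusted p = 0.168).

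The flg22 effect with Fe in IMA1ox minus that in WT was called in 2 members, both negative, where 0.865% of all genes were called. It was -3.16 ± 0.70 for CRK20 (adjusted p = 0.0230) and -1.99 ± 0.50 for CRK31 (adjusted p = 0.0493). After flg22 itself, CRK20 stood at 0.833 ± 0.378 CPM in WT and 1.47 ± 0.479 CPM in IMA1ox, and CRK31 at 2.09 ± 0.221 and 1.89 ± 0.227 CPM, so the smaller fold went with a higher level before treatment. CRK31 lost this call in all 12 fits with 1 library left out (adjusted p from 0.0528 to 0.160) and with no filter, and CRK20 in 5 of 12, without WT +Fe 2 or 3, WT +Fe flg22 1, IMA1ox +Fe 3 or IMA1ox +Fe flg22 1 (adjusted p from 0.0622 to 0.0935). With limma-trend on log2(CPM + 1) neither was called (adjusted p = 0.247 and 0.107).

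Under Fe deficiency flg22 called 17 members higher and 0 lower in IMA1ox, where 45.5% of all genes were called, 24% higher and 21.5% lower, with a median of 0.54 over the members and 0.00 over all genes. CRK9 went from 0.157, 0.135 and 0.321 CPM to 1.10, 2.08 and 1.98 CPM. No treated library was near an untreated one, and the rise was 3.02 ± 0.34. CRK31 rose by 2.91 ± 0.36, CRK20 by 2.02 ± 0.42, CRK5 by 1.78 ± 0.40, CRK17 by 1.68 ± 0.47 and CRK18 by 1.37 ± 0.35. In IMA1ox -Fe flg22 1 the levels were 0.62 CPM for CRK5, 0.423 CPM for CRK20 and 1.01 CPM for CRK31, against 3.10 and 2.57, 1.47 and 1.73, and 2.77 and 2.90 CPM in the other libraries of that group. That library overlapped the untreated ones in CRK5 (up to 0.677 CPM untreated), CRK18 (2.31 against up to 2.43 CPM) and CRK2 (26.39 against up to 26.5 CPM). In CRK11 it lay below all of them (7.81 against 8.69 CPM or more), and in CRK17 it was little above them (0.282 against up to 0.267 CPM). Without it 17 members were called as well, CRK26 not among them, and these 5 genes had log2 fold changes of 2.19 for CRK5, 1.69 for CRK18, 0.62 for CRK2, 0.89 for CRK11 and 2.07 for CRK17. Green shoot markers were called higher in 5 of 8 and dividing cell markers lower in 5 of 5, both with and without Fe, and their part in the result was not tested.

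CRK9 had a larger flg22 effect in Fe-deficient than in Fe-sufficient IMA1ox, by 2.14 ± 0.45 (adjusted p = 0.0357), and was the 1 member called in that difference, where 0.177% of all genes were called. Without IMA1ox -Fe flg22 1 there were 5, and CRK9 lost the call without IMA1ox +Fe 2 or 3, any IMA1ox +Fe flg22 library, IMA1ox -Fe 1 or 2 or IMA1ox -Fe flg22 2 or 3 (adjusted p from 0.0524 to 0.127), with limma-trend and in the 12 libraries alone. Against WT under Fe deficiency, the flg22 effect was larger in IMA1ox for CRK26 (0.71 ± 0.16, adjusted p = 0.0112) and CRK29 (0.34 ± 0.08, adjusted p = 0.0182), where 2.87% of all genes were called. CRK26 (AT4G38830) went from 10.2, 8.76 and 9.46 CPM to 7.07, 7.71 and 7.28 CPM in WT and from 8.56, 9.07 and 8.28 CPM to 11.6, 10.9 and 10.2 CPM in IMA1ox. Neither pair of groups overlapped, and the moves ran in opposite directions. CRK29 (AT4G21410) went from 79.2, 76.1 and 70.8 CPM to 73.8, 70.9 and 78.0 CPM in WT and from 65.1, 71.5 and 63.8 CPM to 85.8, 78.7 and 84.8 CPM in IMA1ox. It lost the call without WT -Fe flg22 2 or IMA1ox -Fe 3 (adjusted p from 0.0634 to 0.0673) and in the 12 libraries alone.

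After flg22 with Fe, 7 members were higher in IMA1ox than in WT and 0 lower, where 14.5% of all genes were called, 7.05% higher and 7.44% lower. CRK32 had 1.07, 1.15 and 0.636 CPM against 0.240, 0.200 and 0.316 CPM, with 1.91 ± 0.62, and CRK17 had 1.61, 2.93 and 1.61 CPM against 0.719, 0.467 and 0.632 CPM, with 1.76 ± 0.40. CRK40 had 3.29, 4.83 and 2.91 CPM against 1.51, 0.834 and 1.12 CPM, with 1.67 ± 0.34. No groups overlapped, and all 3 genes were called before flg22 too. CRK10 had 3.39, 3.46 and 2.91 CPM against 1.92, 1.74 and 1.72 CPM (0.86 ± 0.21), and CRK26 had 10.6, 10.4 and 10.9 CPM against 5.54, 5.94 and 8.42 CPM (0.68 ± 0.12), also without overlap. CRK25 and CRK3 were higher by 0.50 ± 0.12 and 0.23 ± 0.06. After flg22, green shoot markers were called lower in IMA1ox than in WT in 6 of 8 with Fe and 5 of 8 without, dividing cell markers in 0 of 5, and their part in the result was not tested.

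After flg22 without Fe, 3 members were higher in IMA1ox and 0 lower, where 10.3% of all genes were called, 4.44% higher and 5.88% lower. CRK26 had 11.6, 10.9 and 10.2 CPM against 7.07, 7.71 and 7.28 CPM (0.57 ± 0.11), which do not overlap. CRK28 had 38.3, 46.9 and 41.2 CPM against 31.99, 34.002 and 36.2 CPM (0.31 ± 0.09), and CRK3 had 41.5, 46.2 and 44.3 CPM against 37.0, 36.2 and 39.2 CPM (0.23 ± 0.06), each also apart. The count was 5 without IMA1ox -Fe flg22 1 and 1 without WT -Fe flg22 2. Fe deficiency in flg22-treated IMA1ox called 0 members by edgeR and 1 each by DESeq2 and limma-trend, with 4 at an unadjusted p under 0.05, where 2.26% of all genes were called, 0.884% higher and 1.38% lower.

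With 1 library left out, the flg22 calls of IMA1ox with Fe ended for CRK26 (library totals, and all fits but that without IMA1ox +Fe 2, adjusted p from 0.0507 to 0.157), for CRK5 (without any IMA1ox +Fe library or IMA1ox +Fe flg22 3, adjusted p from 0.0522 to 0.154) and for CRK31 (without IMA1ox +Fe 1, adjusted p = 0.0527). Under Fe deficiency they ended without IMA1ox -Fe flg22 3 for CRK10, CRK11 and CRK17 (adjusted p from 0.0502 to 0.101), without IMA1ox -Fe flg22 2 for CRK11 and CRK34 (adjusted p = 0.0716 and 0.0822), in the 6 libraries alone for CRK11 (adjusted p = 0.182), and without IMA1ox -Fe 3 or IMA1ox -Fe flg22 1 for CRK26 (adjusted p from 0.0655 to 0.0677). Against WT after flg22, CRK32 lost the call in all such fits but that without IMA1ox +Fe flg22 3 (adjusted p from 0.0590 to 0.116), CRK3 in the compared libraries alone and in 2 with Fe (without WT +Fe flg22 1 or IMA1ox +Fe flg22 3) and 2 without (WT -Fe flg22 2 or IMA1ox -Fe flg22 2), and CRK28 in the 6 libraries alone and in 3 without Fe (WT -Fe flg22 1 or 2 or IMA1ox -Fe flg22 2, adjusted p from 0.0616 to 0.140).

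Position in the genome gave another view of the members. A run of 15 consecutive protein-coding genes on chromosome 4 goes from CRK5 to CRK19, with 12 of them kept here, and a run of 5 goes from CRK20 to CRK24, with 3 kept. Within the run of 15, CRK5, CRK9, CRK11, CRK17, CRK18 and CRK19 rose after flg22 in WT +Fe, CRK8 had -0.11 ± 0.66 and CRK10 had 0.56 ± 0.23 (adjusted p = 0.0556), and CRK6, CRK7, CRK13 and CRK16 were too low to test. Levels within the run ranged from 26.6 CPM per kb in CRK19 to 0 in CRK7 in WT +Fe. The run of 3 from CRK30 to CRK32 also differed within itself: CRK31 rose by 3.03 ± 0.38 after flg22 in WT +Fe, while CRK30 had -0.75 ± 0.51 and CRK32 had 0.05 ± 0.74. CRK32 was higher in IMA1ox, with 2.097 ± 0.60, and CRK30 had -0.55 ± 0.49 there. CRK2 and CRK3, the pair on chromosome 1, both rose after flg22, by 0.44 ± 0.11 and 0.19 ± 0.06.

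Related genes give a setting for the family, from lists chosen with earlier results of these data known. Of 5 other CRK loci listed, CRK43 and CRK44 were tested. CRK44 rose after flg22 in WT +Fe (0.64 ± 0.24, adjusted p = 0.0304), a call that ended without WT +Fe 1 or 3 or WT +Fe flg22 1 or 2 (adjusted p between 0.0901 and 0.129). The plasmodesmata-located proteins (PDLPs) carry DUF26 domains and no kinase. Of 8 tested 1 rose, PDLP8 (0.55 ± 0.09), and 3 fell, PDLP2 (-0.57 ± 0.10), PDLP7 (-0.48 ± 0.10) and PDLP6 (-0.43 ± 0.11), with a median of -0.27. Of all genes tested, 40.1% were called in that comparison, 20.8% higher and 19.4% lower, so counts over a list this short are descriptions. AT5G48540, a secreted DUF26 protein gene, rose from 14.8 ± 0.791 to 43.1 ± 2.11 CPM (1.54 ± 0.19). It was also higher in IMA1ox than in WT with Fe (0.75 ± 0.19), fell under Fe deficiency in IMA1ox (-1.17 ± 0.20), and differed there from WT by -1.27 ± 0.28 (adjusted p = 0.00770). The other secreted gene tested, AT3G22060, had 0.12 ± 0.22 after flg22.

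Of 5 receptor partners, 4 rose after flg22 in WT +Fe, where 20.8% of all genes tested were called higher. FLS2 rose by 2.04 ± 0.27, the kinase gene BIK1 by 0.67 ± 0.07, the oxidase gene RBOHF by 0.59 ± 0.06 and BAK1 by 0.20 ± 0.04. RBOHD, the oxidase that CRK2 phosphorylates, had -0.24 ± 0.13 (adjusted p = 0.157) with Fe and fell by 0.84 ± 0.13 under Fe deficiency. It rose with Fe deficiency in WT (0.97 ± 0.13, adjusted p = 2.08e-05; adjusted p = 0.0904 in the 6 libraries alone) and was higher in IMA1ox than in WT with Fe (0.61 ± 0.13), while CRK2 had 0.03 ± 0.11 and 0.04 ± 0.11 in these comparisons.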

How the data were processed

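RNA was sequenced from 36 pools of Arabidopsis roots. From the authors come gene-level counts, deposited unnormalised and used for every test, and a deposited matrix of normalised signal in CPM, proportional to those counts within each column and used for 1 alternative. Per the submitters' processing notes the tools and build were STAR 2.7.0a, edgeR 3.36.0 and TAIR10; their roles, the read counter and the counting strand are not given in the sources used here, so reads from overlapping, antisense or near-identical CRK genes cannot be told apart. The deposited CPM columns sum to 953710 to 1031100. Members and gene lists were chosen with earlier results of these data known.

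Counts were analysed in R 4.3.3 with edgeR 4.0.16: filterByExpr with a minimum count of 10, TMM factors, a mean for each of 12 groups, the robust quasi-likelihood test, and Benjamini-Hochberg adjustment over 20354 genes in each of 27 comparisons, 1 of them added after the data were seen. Intervals of log2 fold changes are 1.96 SE, and counting intervals are exact at 95% and cover counting error only. The procedure was tested on simulated data. Alternatives were RLE factors, library totals alone, no filter, a mean of at least 1 CPM, DESeq2 1.42.0, limma-trend (limma 3.58.1) on log2(CPM + 1), the compared groups alone, a replicate block, and leaving out each library. Genes given with values in every library were the 8 called members with the largest change for flg22 in WT with Fe, the 3 largest called falls there, and up to 5 called per comparison for Fe deficiency in WT, IMA1ox against WT and the differences of differences; those of Fe deficiency in IMA1ox were added after their values were seen. Promoters and gene models are from RefSeq TAIR10.1. Depth ran from 28130566 to 40903411 counts, and 13 members had a mean under 0.5 CPM.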

Additional observations from a re-analysis of the deposited data

Results flagged for a closer look

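In 27 cases the effect of a treatment on a CRK gene differed between groups by a test of the difference itself, on the log2 scale. Several share the same WT or IMA1ox libraries and are not independent of each other.

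The flg22 effect with Fe was smaller in fls2 than in WT for 9 genes: the difference was -3.68 for CRK20, -2.68 for CRK18, -2.35 for CRK31, -2.15 for CRK5, -1.78 for CRK9, -0.82 for CRK11, -0.61 for CRK28, -0.48 for CRK2 and -0.24 for CRK3. Under Fe deficiency it was smaller for 10 genes, by -3.42 for CRK31, -2.29 for CRK18, -2.28 for CRK17, -2.15 for CRK20, -2.08 for CRK5, -1.83 for CRK9, -1.06 for CRK11, -0.52 for CRK2, -0.49 for CRK27 and -0.43 for CRK28.

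Between IMA1ox and WT the flg22 effect with Fe differed by -3.16 for CRK20 and -1.99 for CRK31, and without Fe by 0.71 for CRK26 and 0.34 for CRK29. Within IMA1ox, CRK9 had an flg22 effect larger by 2.14 under Fe deficiency. The Fe deficiency effect in IMA1ox minus that in WT was -3.98 for CRK20, -2.19 for CRK9 and -1.89 for CRK40.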

How the results depend on the processing

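Of 143 member and comparison pairs called, 141 were still called with RLE factors, 139 with library totals alone, 137 with no filter, 107 of 110 with a value at a mean of 1 CPM, 141 with a replicate block, 141 with DESeq2, 137 with limma-trend and 130 of 142 in the compared groups alone, and 0 were reversed in any. In 0 of 20 pairwise comparisons were all same-number correlations of the libraries' deviations over 0.1 (range from -0.277 to 0.332). They were all positive in some, such as fls2 against WT with Fe (0.0926 to 0.291). Differently numbered libraries were not compared, so a batch shared by replicate number is not excluded, and the labels name none. Under the replicate block 2 calls were lost. The counts for Fe deficiency in flg22-treated IMA1ox and for IMA1ox against WT under Fe deficiency became 1 and 1, from 0 and 2.

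The filter at a mean of 1 CPM removes low members and gave 9 calls for flg22 in WT with Fe (from 14), 4 for Fe deficiency in IMA1ox (from 7), 5 for IMA1ox against WT with Fe (from 9), 0 for fls2 against WT under Fe deficiency (from 1) and 0 for the flg22 effect with Fe in IMA1ox minus WT (from 2). For Fe deficiency in flg22-treated IMA1ox DESeq2 and limma-trend gave 1 each. IMA1ox against WT under Fe deficiency gave 1 with no filter and with limma-trend and 0 in the groups alone; after flg22 it gave 5 with library totals and 1 in the groups alone (from 3). For fls2 against WT under Fe deficiency no filter, limma-trend and the groups alone gave 0. The IMA1ox difference between Fe conditions gave 0 with limma-trend and in the groups alone (from 1). The flg22 effect in IMA1ox minus WT gave 1 with no filter and 0 with limma-trend with Fe, and 1 in the groups alone without Fe (from 2). Except for the 1 CPM filter, the cause was not tested.

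With 1 library left out, counts ran from 10 to 13 for flg22 in WT with Fe, 12 to 15 without Fe, 9 to 11 in IMA1ox with Fe, 14 to 17 without, and 0 to 0 in fls2. They ran from 0 to 0 for Fe deficiency in WT and in fls2, 3 to 6 in IMA1ox, and after flg22 from 0 to 1 in WT, 0 to 2 in fls2 and 0 to 1 in IMA1ox. IMA1ox against WT gave 5 to 9 with Fe, 0 to 1 without, 5 to 7 with Fe and flg22 and 1 to 5 without Fe and with flg22. Against WT, fls2 gave 0 to 0, 0 to 1, 11 to 13 and 14 to 15 in the same order. The fls2 minus WT differences gave 5 to 8 with Fe and 7 to 12 without, those of IMA1ox 0 to 2 and 1 to 2, those between Fe conditions 0 to 0 in WT and 0 to 5 in IMA1ox, and the Fe deficiency difference 2 to 3. Calls over all genes moved as well. They ran from 5961 to 8524 for flg22 in WT with Fe (8170 with all libraries) and from 466 to 673 for Fe deficiency in IMA1ox (873). IMA1ox against WT with Fe gave 2141 to 2746 (3404), and the IMA1ox difference between Fe conditions gave 8 to 412 (36).

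Over all genes, library totals alone moved the share of calls that were higher from 42.4% to 66.4% for IMA1ox against WT with Fe, from 34.8% to 69.5% without Fe, from 48.6% to 62% with Fe and flg22 and from 43.0% to 58.4% without Fe and with flg22. It moved from 52.8% to 41.8% for flg22 in Fe-deficient IMA1ox, from 54.3% to 42.1% for Fe deficiency in fls2, from 77.8% to 66.7% for the flg22 effect of IMA1ox between Fe conditions, and from 72.1% to 61.0% for that of IMA1ox minus WT without Fe. Depth limits the 13 members under 0.5 CPM most.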
